A study of Mus musculus with 6 samples.

Results

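The genes described here encode 10 components of the basement membrane, the thin sheet of extracellular matrix under epithelia. They are the nidogens Nid1 and Nid2, the laminin chains Lama1, Lama5, Lamb1 and Lamc1, the collagen IV chains Col4a1 and Col4a2, perlecan (Hspg2) and agrin (Agrn). They were chosen by name around Nid1, which had the smallest p-value of all 4745 genes lower at 48 h than at 24 h of FGF2 in the same data, so the change of Nid1 is what selected the set and is given as a description without a test. The other 9 were added because they build the same structure, with results of this comparison already known, and are also described without a test. All 10 were among the 51912 genes of the count table and among the 14889 genes with enough counts to be tested.

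A basement membrane forms when laminin heterotrimers, each of an alpha, a beta and a gamma chain, assemble at the cell surface, and a network of collagen IV is laid beside them. Nidogens bind both networks, and perlecan and agrin are heparan sulfate proteoglycans that attach to them. In the early embryo such a membrane separates the epiblast from the primitive endoderm, and embryonic stem cells, which derive from the epiblast, transcribe many of its components themselves.

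The cells were R1 mouse embryonic stem cells, a single established line, first grown in 2iLIF, a medium that holds naive pluripotency. For 24 h (3 libraries) or 48 h (3 libraries) they were then kept in N2B27, which contains no serum, and given 100 ng/ml FGF2. Every library thus shares the medium and the growth factor, and by their labels the groups differ in time. That time is also the time since 2iLIF, and the labels used here give no batch of culture or library. Cells left in 2iLIF or kept in N2B27 without FGF2 were not analysed here. The labels do not say whether replicates were separate cultures, so errors and p-values measure the spread between these libraries, which may be technical.

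The libraries held between 19574969 and 23133148 estimated counts, and the 10 genes had between 233 and 14997 counts in each. The labelled cell type was checked on 8 embryonic stem cell markers, all of which were detected, with a summed level of 5261 to 5317 CPM (counts per 1000000 of the TMM-scaled library) at 24 h and 3356 to 3435 at 48 h. Of 14 primitive endoderm markers, 10 had a mean under 1 CPM and Ttr was at 0 throughout. Their summed level was 14.4 to 15.8 CPM at 24 h and 9.19 to 10.2 at 48 h. Of 10 fibroblast markers, 8 had a mean under 1 CPM, Fap, Lum and Postn were at 0, and the summed level was 4.05 to 6.02 and 3.13 to 4.51 CPM. In bulk RNA, fewer cells of a type and less RNA per cell cannot be told apart.

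The 10 genes fell into 3 ranges of change. Nid1 and Lama1 were about 4-fold lower at 48 h, with fitted log2 fold changes (48 h over 24 h; SE is the standard error of this fit) of -2.11 and -2.00. Another 6 genes, Nid2, Agrn, Col4a2, Hspg2, Lamc1 and Col4a1, were modestly lower, from -0.50 to -0.24. Lama5 and Lamb1 were slightly higher, at 0.25 and 0.14. At an adjusted p under 0.05, 8 of the 10 were called lower, where 31.9% of all tested genes were, and 2 were called higher, where 30.9% were. A call in either direction was made for 62.8% of all tested genes. The libraries of the 2 times did not overlap for any of the 10: 8 were lower without overlap, as 34.2% of all tested genes were, and 2 higher, as 32.7% were, or 66.9% in both directions together. Since the set was chosen with this contrast known, nothing is read from these counts. The median of the 10 was -0.46 and that of all tested genes -0.01.

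**Figure D1:**
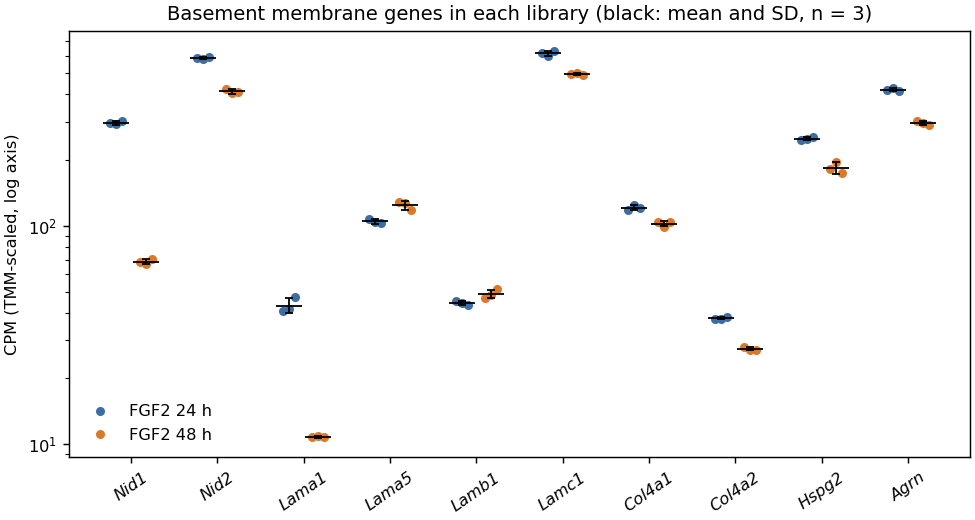
CPM of each gene (log axis) in the 3 libraries at 24 h (blue) and the 3 at 48 h (orange), with the mean and SD in black. The mean of Nid1 is 297 CPM at 24 h and 68.6 at 48 h, that of Lama1 43.1 and 10.8, while Lama5 and Lamb1 were above their 24 h values in all 3 libraries at 48 h.

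Upstream sequence was taken from the RefSeq promoter table (GRCm38.p6) to see what the genes share there. A window was matched for 7 of the 10 genes, all but Nid2, Lama1 and Lamc1. Over the 250 bases before the start, the 7 windows had a GC content of 62.0% to 83.6% and 14 to 35 CpG dinucleotides, where the medians over the table's 32851 windows were 52.4% and 6. Those windows cover 27025 genes, tested here or not, while the 7 are all of tested genes, so the comparison is not matched for expression. Shown are Nid1, the lowest value among genes with a window (chr13:13437352-13437550, plus strand), the genes that were higher, Lama5 (chr2:180225905-180226109, minus strand) and Lamb1 (chr12:31265043-31265145, plus strand), and Agrn from the modestly lower group (chr4:156197534-156197738, minus strand). Each is trimmed to the bases before any annotated start of the gene and runs 5′ to 3′ on the gene's strand. Capitals mark GGGCGG, the GC box, and CCAAT, the CCAAT box, on either strand.
Nid1: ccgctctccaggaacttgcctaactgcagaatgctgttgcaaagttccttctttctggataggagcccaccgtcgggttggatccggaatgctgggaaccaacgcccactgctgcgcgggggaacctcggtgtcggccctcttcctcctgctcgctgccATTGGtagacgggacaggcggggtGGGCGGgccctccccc
Lama5: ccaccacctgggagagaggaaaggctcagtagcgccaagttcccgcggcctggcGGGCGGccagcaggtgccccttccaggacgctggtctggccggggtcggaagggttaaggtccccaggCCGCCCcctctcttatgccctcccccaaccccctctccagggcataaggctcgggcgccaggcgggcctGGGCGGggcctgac
Lamb1: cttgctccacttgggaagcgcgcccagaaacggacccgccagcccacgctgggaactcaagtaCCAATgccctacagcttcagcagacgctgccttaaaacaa
Agrn: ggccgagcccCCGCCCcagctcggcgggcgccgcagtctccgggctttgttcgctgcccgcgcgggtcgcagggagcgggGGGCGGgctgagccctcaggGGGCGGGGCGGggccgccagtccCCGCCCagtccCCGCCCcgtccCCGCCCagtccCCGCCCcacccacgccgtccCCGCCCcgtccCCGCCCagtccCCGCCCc

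GGGCGG, searched on both strands, was in 6 of the 7 windows, all but that of Col4a1, and in 32.7% of all windows, of genes tested here or not. The 2 matches of Lamb1 lie past the trimmed end, so none is printed above. The bases of Col4a1 and Col4a2 left after the same trimming, 187 and 250, all lie in annotated exons. CCAAT was in 4 of the 7, those of Nid1, Lamb1, Col4a1 and Col4a2, and in 33.8% of all. The Agrn stretch holds 11 matches of GGGCGG, of which neighbours can overlap by a base, in an array repeated over much of its length, whereas that of Nid1 holds 1. The TATA box TATAAA, present in 12.4% of all windows, matched 0 of the 7. So did the AP-1 motif TGANTCA, which 6.75% of all windows hold. GATAAG, a site type of GATA factors, also matched 0 of the 7 and 6.55% of all. Genes that were lower and genes that were higher at 48 h both had GC-rich windows, and a CCAAT box stood upstream of Nid1 as well as of Lamb1. These are matches of letters and show no binding.

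Nid1 (ENSMUSG00000005397, chr13:13437551-13512269 on the plus strand, GRCm38) encodes nidogen-1, the linker that joins the laminin and collagen IV networks. Its level was 296, 292 and 303 CPM in the 24 h libraries and 68.6, 66.5 and 70.5 CPM in the 48 h libraries. Every 48 h library was thus below every 24 h library by a wide margin. The fitted log2 fold change was -2.11 (SE 0.03), which leaves 23.1% of the 24 h level. The replicates were tight, with an SD of 1.96% of the mean at 24 h and 2.92% at 48 h, where counting error alone gives 1.26% and 2.58%. Among the tested genes 205 had a lower fitted value, so Nid1 led the list by its p-value and not by the size of its change. One of its 6 counts was fractional, as RSEM gives when it divides reads between genes. A gene on the opposite strand, Gm48682, shares 143 exon bases with it and had at most 0.042 CPM in any library.

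Nid2 (ENSMUSG00000021806, chr14:19751265-19811787, plus strand) encodes nidogen-2, the second and only other nidogen. It read 587, 580.5 and 592 CPM at 24 h and 425, 406 and 409 CPM at 48 h. The 48 h libraries were lower and did not overlap with the 24 h libraries, but the step was small beside that of its paralog: a log2 fold change of -0.50 (SE 0.02), or 70.5% of the 24 h level. Per kilobase of the longest annotated transcript, Nid1 stood at 0.40, 0.40 and 0.41 of the Nid2 level at 24 h and at 0.13, 0.13 and 0.14 at 48 h. Nid2 was the more abundant nidogen at both times. The exons of Nid2 share 437 bases with Rtraf on the opposite strand, an abundant gene of 115 to 122 CPM that did not pass the test (log2 fold change 0.05, edgeR adjusted p = 0.105). Whether reads were counted by strand is not given in the sources used here, so part of the Nid2 counts could be reads of Rtraf.

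Lama1 (ENSMUSG00000032796, chr17:67697259-67822647, plus strand) encodes the laminin alpha 1 chain, the alpha chain of the early embryonic laminin. It had 40.6, 41.7 and 47.0 CPM at 24 h and 10.7, 10.9 and 10.7 CPM at 48 h. This was the only gene of the set besides Nid1 to be lower by at least 2-fold, and 6.63% of all tested genes were called with a value that low. Its log2 fold change was -2.00 (SE 0.07), and it differed from that of Nid1 by 0.11. The 48 h values rest on 233, 239 and 238 counts and lie closer together, with an SD of 1.04% of the mean, than the 6.50% that counting error alone gives. Their SD is therefore no guide to their precision. At 24 h the third replicate was the highest of the 3 and the SD was 7.87% of the mean.

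Lama5 (ENSMUSG00000015647, chr2:180176373-180225859, minus strand) encodes the alpha 5 chain, the most widespread alpha chain of later basement membranes. Its values were 107, 104 and 103 CPM at 24 h and 128, 128 and 118 CPM at 48 h. It was the gene of the set with the largest upward value, a log2 fold change of 0.25 (SE 0.03), or 119% of the 24 h level. Replicate 3 of 48 h lay below the other 48 h libraries but above every 24 h library. The ratio of Lama1 to Lama5 per kilobase was 0.45, 0.48 and 0.55 at 24 h and 0.10, 0.10 and 0.11 at 48 h.

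Summed over the 5 laminin alpha chains, the alpha level per kilobase was 14.3 ± 0.25 CPM per kb at 24 h and 12.4 ± 0.50 at 48 h (SD, n = 3 at each time). Lama1 made up 31.6% ± 2.1 of this sum at 24 h and 9.17% ± 0.35 at 48 h, and Lama5 64.2% ± 2.1 and 88.4% ± 0.71 (SD, n = 3). The alpha sum was a little smaller at 48 h, and its mix differed: the Lama1 share was lower and the Lama5 share higher in every 48 h library. The remaining alpha chains, Lama2, Lama3 and Lama4, each contributed at most 2.32% in any library.

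**Figure D2:**
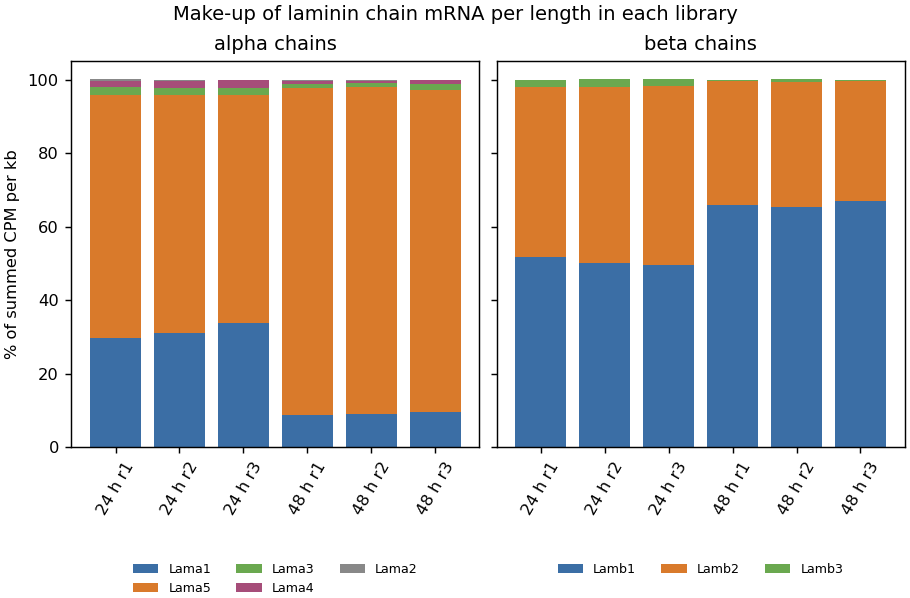
Share of each laminin chain in the summed CPM per kb of alpha and of beta chains (stacked bars from 0 to 100%), by library, with r1 to r3 for the replicates. The Lama1 share lies between 29.8% and 33.8% in the 24 h libraries and between 8.86% and 9.55% in the 48 h libraries, and the Lamb1 share lies between 49.5% and 51.7% and between 65.4% and 67.0%.

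Lamb1 (ENSMUSG00000002900, chr12:31265234-31329644, plus strand) encodes the beta 1 chain, a partner of both alpha 1 and alpha 5. It read 45.3, 44.4 and 43.4 CPM at 24 h and 46.9, 48.1 and 51.2 CPM at 48 h. The groups did not overlap, but the lowest 48 h library was close to the highest 24 h library, and the log2 fold change was 0.14 (SE 0.04). Its call depended on replicate 3 of 48 h: without that library the value was 0.10, and with library size as the only scaling 0.08, and neither was called. Lamb2, the beta 2 chain, fell from 40.8 ± 1.26 to 24.0 ± 0.62 CPM (SD, n = 3), with adjusted p = 2.85e-10 at a log2 fold change of -0.77. Lamb1 accounted for 50.4% ± 1.2 of the summed beta chains per kilobase at 24 h and 66.1% ± 0.82 at 48 h (SD, n = 3).

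Lamc1 (ENSMUSG00000026478, chr1:153218922-153332786, minus strand) encodes the gamma 1 chain, which carries the binding site for nidogens and is shared by most laminins. It had the highest CPM of the set, with 618, 603 and 636 at 24 h and 495, 501 and 493 at 48 h. All 48 h libraries were lower, at 80.2% of the 24 h level (log2 fold change -0.32, SE 0.02). Per kilobase of longest transcript, Lamc1 exceeded Lamb1 by 10.6-fold ± 0.45 at 24 h and 7.74-fold ± 0.38 at 48 h (SD, n = 3). On coding length the values were 15.9-fold and 11.6-fold. The summed beta chains stood at 15.2 ± 0.11 CPM per kb at 24 h and 12.7 ± 0.47 at 48 h (SD, n = 3), also far below Lamc1. These levels compare mRNA counts per annotated length and say nothing of protein.

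Col4a1 (ENSMUSG00000031502, chr8:11198423-11312826, minus strand) and Col4a2 (ENSMUSG00000031503, chr8:11312805-11449287, plus strand) encode the alpha 1 and alpha 2 chains of the common collagen IV trimer. They lie head to head, and their annotated starts overlap by 22 bases. Col4a1 had 118, 124 and 121 CPM at 24 h and 104, 99.1 and 104 at 48 h. Col4a2 had 37.4, 37.5 and 38.2 CPM at 24 h and 27.8, 27.1 and 27.1 at 48 h. Both were lower in every 48 h library, by log2 fold changes of -0.24 (SE 0.03) and -0.47 (SE 0.04). The ratio of Col4a1 to Col4a2 per kilobase was 3.07, 3.23 and 3.09 at 24 h and 3.65, 3.57 and 3.75 at 48 h. The values of this ratio did not overlap between the times. Levels of single genes did not overlap for 66.9% of all tested genes, and no such share was computed for ratios.

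Hspg2 (ENSMUSG00000028763, chr4:137468769-137570630, plus strand) encodes perlecan, which carries heparan sulfate chains able to bind growth factors such as FGF2. It read 248, 249 and 255 CPM at 24 h and 183, 196 and 174 at 48 h. The 48 h libraries were lower and more scattered than those of 24 h, with an SD of 6.13% of the mean against 1.50%, and counting error near 1.57% and 1.37%. The log2 fold change was -0.44 (SE 0.03). Agrn (ENSMUSG00000041936, chr4:156165290-156197488, minus strand) encodes agrin, the proteoglycan that ties laminin to dystroglycan. Its values were 420, 427 and 413 CPM at 24 h and 301, 295 and 291 at 48 h, a log2 fold change of -0.50 (SE 0.02). Perlecan stood at 0.36 ± 0.011 of the agrin level per kilobase at 24 h and 0.38 ± 0.022 at 48 h (SD, n = 3), values that overlapped between the times.

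**Figure D3:**
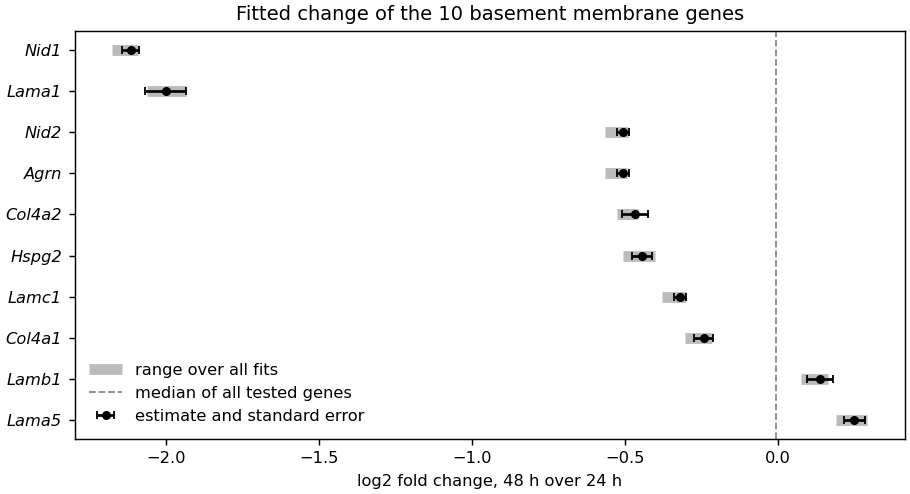
Fitted log2 fold change of each gene (point) with its standard error (bar), the range over all fits computed (grey) and the median of all tested genes (dashed line). Nid1 and Lama1 lie near -2, 6 genes between -0.50 and -0.24, and Lamb1 and Lama5 above 0.

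The order of the levels per kilobase of longest transcript changed little apart from Nid1. At 24 h it ran Nid2 (120 CPM per kb), Lamc1 (81.2), Agrn (48.8), Nid1 (48.8), Col4a1 (18.3), Hspg2 (17.7), Lama5 (9.20), Lamb1 (7.67), Col4a2 (5.85) and Lama1 (4.53). Agrn and Nid1 overlapped in their libraries, as did Col4a1 and Hspg2, so neither pair can be ordered on this length. At 48 h Nid1 had moved to 11.3 CPM per kb, below Col4a1 (15.5) and Hspg2 (13.0), and overlapped with Lama5 (10.9). The order on coding length was not computed and can differ. Coding length is 3735 bases against a transcript of 6091 for Nid1, and 13149 against 14187 for Hspg2. Against all 13256 tested protein-coding genes, Nid1 exceeded 90.3% of them at 24 h and 62.3% at 48 h. The same shares were 96.8% and 94.6% for Nid2, 40.7% and 21.3% for Lama1, and 56.8% and 61.5% for Lama5. Nid1 thus moved from near the top of the protein-coding genes toward the middle, while Nid2 stayed near the top.

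**Figure D4:**
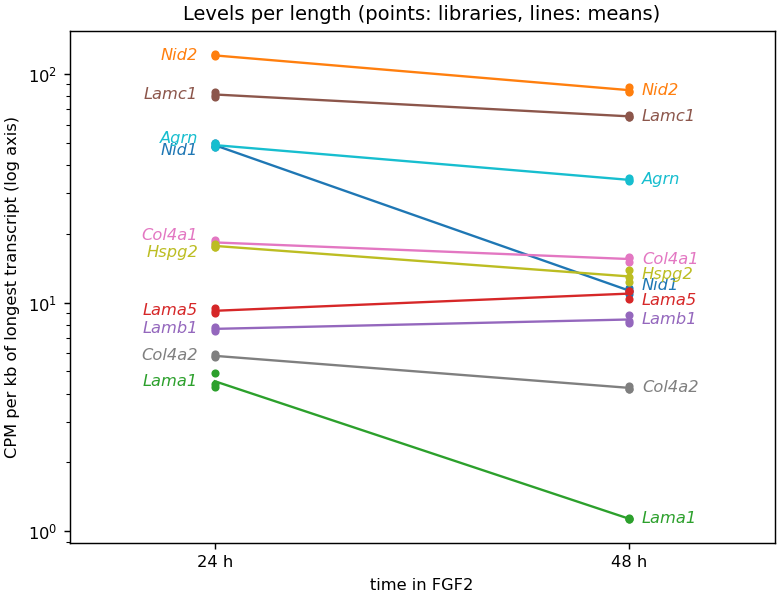
Level of each gene in CPM per kb of its longest annotated transcript (log axis) at 24 h and 48 h, with points for libraries and lines between means. Nid1 starts level with Agrn at 48.8 and ends beside Lama5 near 11, and Lama1 is the lowest of the 10 at both times.

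The question of which basement membrane genes move with Nid1 was addressed by the distance between profiles of log2 CPM over the 6 libraries, each centred on its own mean. This distance is 0 for identical profiles and is set mostly by the step between the times. That step selected Nid1 and was known when the other members were added, so their ranks are a description and no test. Lama1 was nearest, at 0.21, and ranked 17 among the genes with at least 5 CPM, of which 0.153% were nearer to Nid1. The next members, Nid2 and Agrn, were at 1.97, with 10.3% of those genes nearer, and the farthest was Lama5 at 2.90. Nearest to Nid1 among all genes were Fam81a (0.08), the threonine dehydrogenase gene Tdh (0.11), the RNA-binding antiviral gene Zc3hav1 (0.11), Parvb (0.12), which encodes a focal adhesion adaptor, and the planar polarity gene Prickle2 (0.14). Apart from Lama1, then, the 8 remaining genes of the set were not among the near neighbours of Nid1.

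Genes outside the set were then followed in 8 lists of basement membrane biology, which were chosen with earlier results of these data known. Of 109 genes, 89 were tested: 50 fell, 18 rose and 21 did not pass the test (edgeR quasi-likelihood, adjusted p under 0.05 over all tested genes). Of all tested genes, 31.9% fell, 30.9% rose and 62.8% changed in either direction, and the counts of each list are given beside these shares. Since the lists were chosen with results known, the counts are a description and support no claim about a list. The median log2 fold change of the 89 was -0.25, against -0.01 for all tested genes. Among the genes that rose were some enzymes that act on collagen IV and on heparan sulfate, though most called genes of their lists fell.

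All 5 tested laminin chains outside the set fell, against 31.9% of all tested genes, and the list's median was -1.51. Lamb3 and Lama3, the beta 3 and alpha 3 chains, fell by 2.30 and 0.76 on the log2 scale, and Lama4 by 1.51, from levels of 1.45, 3.06 and 1.69 CPM at 24 h. Lama5 and Lamb1 were thus the only tested laminin chains with a fitted value above 0. Of the other collagen IV chains only Col4a5 was tested, and it fell (log2 fold change -0.97, adjusted p = 1.83e-05). Col4a3, Col4a4 and Col4a6 had too few counts to test.

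Of 14 tested genes for other basement membrane and associated matrix proteins, 6 fell, 3 rose and 5 did not pass. That 9 of 14 changed is near the 62.8% of all tested genes. Sparc, a collagen-binding matrix protein, fell from 159 ± 7.32 to 64.9 ± 1.27 CPM (SD, n = 3), with adjusted p = 9.54e-15 at a log2 fold change of -1.30 (SE 0.03). Fbln1, encoding fibulin-1, fell by 0.39 on the log2 scale. Col18a1, which encodes a basement membrane collagen with heparan sulfate chains, rose from 260 ± 7.37 to 317.5 ± 4.54 CPM (SD, n = 3), with adjusted p = 8.65e-09 at a log2 fold change of 0.29. Smoc1 and Vwa1 also rose, by 0.32 and 1.08. Both of these lost their call without replicate 1 of 24 h (0.19 and 0.83) and without replicate 3 of 48 h (0.34 and 0.68), and Smoc1 also without replicate 1 of 48 h (0.26), with DESeq2 (0.33) and with library size as the only scaling (0.26).

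Among genes for the folding, modification and crosslinking of collagen, 12 of 17 tested genes fell (31.9% of all tested genes did), 2 rose (30.9% of all) and 3 did not pass. The largest change was a rise: Pxdn, the peroxidase that crosslinks collagen IV, went from 17.4, 18.1 and 16.7 CPM to 61.4, 65.5 and 55.2. The groups were far apart, and the adjusted p was 2.33e-13 at a log2 fold change of 1.81 (SE 0.06). Plod1, a lysyl hydroxylase, fell from 33.2 ± 0.16 to 13.0 ± 1.06 CPM (SD, n = 3), with adjusted p = 8.79e-12 at a log2 fold change of -1.35, and its relative Plod3 rose by 0.19. The prolyl hydroxylation genes P3h1, P4ha2, P4hb and Crtap fell by 0.48, 0.37, 0.36 and 0.34 on the log2 scale.

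Of 16 tested genes that build or edit heparan sulfate, the chain carried by perlecan and agrin, 9 fell, 4 rose and 3 did not pass, where 31.9% of all tested genes fell and 30.9% rose. Among those that fell were B3gat3 by 0.69, Ext2 by 0.60, Xylt1 by 0.55, B4galt7 by 0.44 and Extl3 by 0.27 on the log2 scale. Sulf1, a sulfatase that edits finished chains outside the cell, rose from 91.7 ± 5.79 to 224 ± 4.17 CPM (SD, n = 3), with adjusted p = 9.58e-15 at a log2 fold change of 1.29 (SE 0.03). Hs6st2, a 6-O-sulfotransferase, rose from 0.33 to 2.72 CPM (log2 fold change 3.03), and Hs2st1 and Hs6st1 rose by 0.17 and 0.14.

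**Figure D5:**
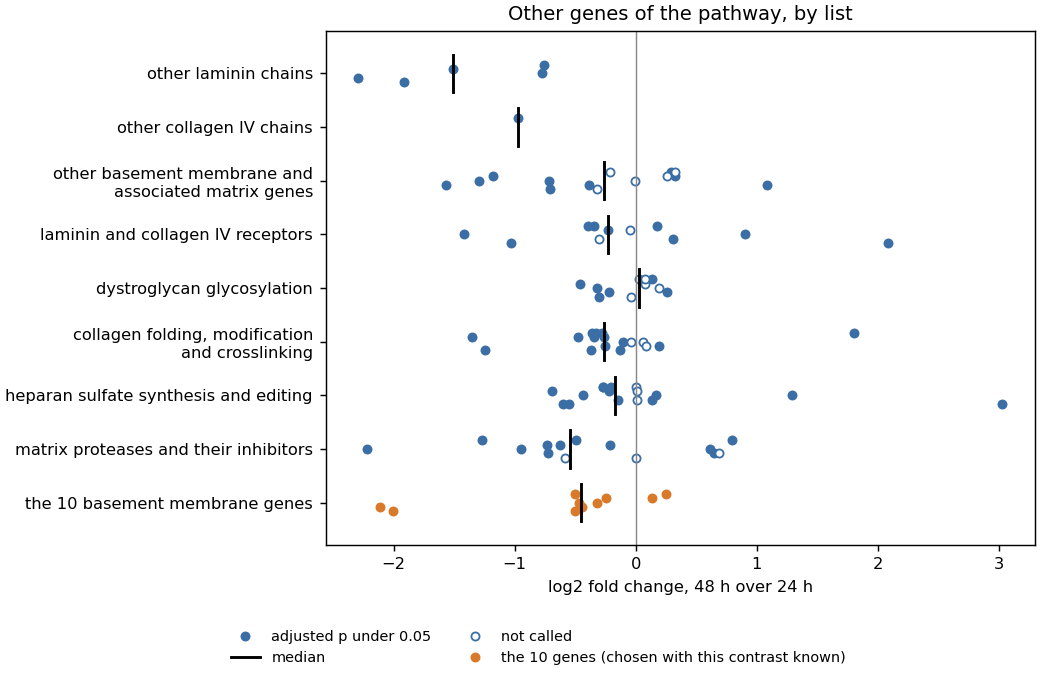
Fitted log2 fold change of each tested gene in the 8 lists outside the set (blue, filled where the adjusted p was under 0.05) and of the 10 genes (orange), with list medians as black bars. The 5 other laminin chains all lie below 0, and the points at the far right are Hs6st2 (3.03), Itga1 (2.08) and Pxdn (1.81).

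Of 11 tested receptor genes for laminin and collagen IV, 5 fell, 4 rose and 2 did not pass, against 31.9% falling and 30.9% rising among all tested genes. The collagen receptor genes Itga1 and Ddr1 rose by 2.08 and 0.91 on the log2 scale, to 5.56 and 30.01 CPM. The shared integrin beta subunit gene Itgb1 rose from 264 ± 2.43 to 327 ± 4.93 CPM (SD, n = 3), with adjusted p = 6.57e-10 at a log2 fold change of 0.31, and Itga3 rose by 0.18. Itgb4 fell by 1.03, Bcam, whose product binds laminin alpha 5, by 0.39, and Itga6 by 0.23. Lrp4, part of the agrin receptor, fell by 0.35. Itga7 fell by 1.42 from 1.02 CPM but lost its call without replicate 2 of 48 h (-1.09), and its value was -2.29 without replicate 1 of 48 h. Of 11 dystroglycan glycosylation genes, which build the sugar that binds laminin and agrin, 4 fell, 2 rose and 5 did not pass. These 6 changed genes of 11 are no larger a share than the 62.8% of all tested genes. In this list B4gat1, Pomk and Pomt1 fell by 0.46, 0.32 and 0.22 on the log2 scale, and B3galnt2 rose by 0.13.

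Of 14 tested genes for matrix proteases and their inhibitors, 8 fell, 3 rose and 3 did not pass, beside 31.9% and 30.9% of all tested genes. The cathepsin genes Ctsb and Ctsl fell by 0.95 and 0.72 on the log2 scale, the inhibitor gene Timp1 by 0.62 and the membrane-bound protease gene Mmp14 by 0.50. Mmp2, a protease that cleaves collagen IV, rose from 6.76 ± 0.15 to 10.4 ± 0.38 CPM (SD, n = 3), with adjusted p = 1.22e-05 at a log2 fold change of 0.61, as did the inhibitor gene Timp3 (0.65). Adamts1 also rose (0.80), from 0.75 CPM, and lost its call in each fit without replicate 2 or 3 of either time, with values from 0.57 to 0.80.

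Lama1, Nid1 and the collagen IV genes are also transcribed strongly by primitive endoderm, and its markers are given beside them for that reason. Of its 14 markers, 6 were tested. The marker lists were also chosen with earlier results known. Their counts are given beside the shares of all tested genes, of which 31.9% fell and 30.9% rose. A change in either direction was called for 62.8% of them. Gata4 fell from 5.84 ± 0.86 to 2.25 ± 0.22 CPM (SD, n = 3), with adjusted p = 4.89e-07 at a log2 fold change of -1.38. Hnf4a fell from 2.39 to 1.19 CPM (adjusted p = 0.000411). Cubn rose from 0.43 to 0.80 CPM (0.92) and lost its call without replicate 2 or 3 of either time (0.77 to 0.95). The remaining 3 tested markers did not pass, and the further regulators Gata6, Sox17 and Sox7 had at most 0.537 CPM in any library. Embryonic stem cell markers moved at the same time: 7 of 8 fell, among them Nanog from 695 to 174 CPM, and Esrrb and Zfp42 by 1.47 and 1.06 on the log2 scale, and Utf1 rose by 0.60. Of 4 tested fibroblast markers, Col1a1 and Pdgfrb fell by 1.76 and 1.80 from 1.03 and 2.06 CPM, Dcn rose from 0 in every 24 h library to 1.22 CPM, and 1 did not pass. The part of any of these in the lower Nid1 and Lama1 levels was not tested.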

How the data were processed

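RNA-seq libraries of R1 mouse stem cells after 24 h (3 libraries) and 48 h (3 libraries) in N2B27 with FGF2 was analysed from 1 table. The authors deposited estimated counts per gene from RSEM, unscaled for depth or length. The submitters' processing notes name cutadapt 1.9.1, STAR 2.5.2, RSEM 1.3.0 and GRCm38. The annotation, strand setting and filters are not given in the sources used here. A GENCODE M21 table (GRCm38) named 51633 of the 51912 genes.

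Counts were rounded, filtered with filterByExpr (minimum count 10), scaled by TMM and tested with edgeR 4.0.16 (R 4.3.3), glmQLFit and glmQLFTest, with group as the only term. P-values were adjusted by Benjamini-Hochberg over the 14889 tested genes. The standard error of a log2 fold change is its size over the root of F. CPM uses TMM-scaled totals. CPM per kb divides by the longest GENCODE M21 transcript, since the RefSeq table gives only gene spans. For distances, a prior count of 2 was added before taking log2 CPM. The fit was run on simulated data in which few of the genes changed. Those data therefore do not test the scaling where most genes change. The alternatives tried were no scaling beyond library size, RLE and upper quartile, other filters, DESeq2 1.42.0, limma voom 3.58.1, unrounded counts, a replicate block, a threshold of 0.01 and leaving out each library.

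The genes and lists were chosen with earlier results of these data known. Named are the 10 genes, at most 6 called genes of at least 5 CPM per list, by size, genes that make up a count of 5 or fewer, and the 5 nearest to Nid1. Marker lists served as checks, and 1 further gene, Rtraf, is named for its overlap with Nid2. Protein sequences were not used here. Some genes of the lists are not reported here.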

Additional observations from a re-analysis of the deposited data

How the results depend on the processing

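No gene of the set changed direction in any of the 15 alternative fits, and 9 of the 10 kept their call in all of them and at a threshold of 0.01. The exception, Lamb1, lost it in 2. The members called higher numbered 1 in place of 2 with library size as the only scaling, and between 1 and 2 when 1 library was left out, the lower value without replicate 3 of 48 h. The number of changed genes ranged from 7986 (DESeq2) to 9792 (no filter on low counts) at the threshold of 0.05. Library size alone moved the median of all tested genes from -0.01 to -0.07 and the higher share among the called genes from 49.2% to 39.9%. With coding length in place of transcript length, Nid1 over Nid2 was 0.57 at 24 h and 0.19 at 48 h, and Col4a1 over Col4a2 was 3.28 and 3.84. Lamc1 over Lamb1 was then 15.9 and 11.6, and Hspg2 over Agrn 0.277 and 0.289. With replicate number as a block, 9235 genes were called, 9138 of which were also called without it, and no gene of the set changed its call. Over the other named genes, 943 alternative values kept the call, 26 lost it and 0 reversed. With DESeq2 the calls of Lrp4 (-0.34), Smoc1 (0.33), Adamts1 (0.81) and Cubn (0.93) were lost, and with library size alone those of Smoc1 (0.26) and B3galnt2 (0.07). Library size alone also moved Hs2st1, Hs6st1 and Itga3 to 0.11, 0.08 and 0.12. Cubn also lost its call with the block (0.91) and with no filter on low counts (0.92). Deviations of same-numbered libraries correlated at -0.046, -0.043 and -0.0085. These values cannot decide whether the libraries were paired, since counting error makes up part of each deviation. Depth left 20 of the 109 genes of the other lists untested.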
